A study of Drosophila melanogaster with 4 samples.

Results

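The genes described here are *bam*, *bgcn*, *tut*, *mei-P26*, *Rbfox1*, *nanos*, *pum* and *brat*, 8 of the 17559 genes counted in Drosophila testes. They were chosen by name, as *bam*, the genes of its partners and the translational regulators that act with it or beside it in dividing early germ cells. The rule for membership used names and no measured value. All 8 were abundant enough to be tested.

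In the male germ line, a stem cell daughter divides as a spermatogonium inside a cyst of somatic cells before its progeny stop dividing and become spermatocytes, and Bam protein must accumulate for that switch to occur. Bam acts in a complex with Bgcn, a protein related to DExH-box RNA helicases, and Tut, an RNA-binding protein, which represses translation of target mRNAs such as *mei-P26* through their 3′ untranslated regions. Nanos and Pum bind mRNAs together and repress them in germline stem cells, in part through the CCR4-NOT deadenylase complex, of which Caf40 is a subunit. Mei-P26 and Brat are proteins with an NHL domain that bind RNA and repress translation. Rbfox1 is an RNA-binding protein whose cytoplasmic isoforms repress *pum* mRNA in the fly ovary.

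Polyadenylated RNA was sequenced in 4 libraries, 2 from Caf40 knockdown testes and 2 from *bam* mutant testes. Knockdown males carried Caf40RNAi (BL67987), a hairpin transgene, with nosGAL4, a driver active in germline stem cells and early spermatogonia and therefore directed at the germ line. Per the study's methods, the driver strains contained UAS-Dicer2 as well. These males were reared at 25 °C for 3 days and then at 29 °C, and were dissected 0 to 2 days after eclosion. The *bam* mutant males were bam1/bam86, given in the study's methods as bam1/bamΔ86 with the CyO balancer. The second allele lacks most of the coding sequence. The males were without the heat-shock *bam* transgene used elsewhere in the study. They grew at 22 °C until they were mid or late pupae, were then heat-shocked for 30 min at 37 °C, and were dissected after a further 48 h at 25 °C. Each library pooled 150 pairs of testes, with the seminal vesicle. The study's methods give males of 0 to 2 days without separating the genotypes, whereas the labels give this age for the knockdown only. Genotype, temperature, heat shock, strain and any difference in age therefore cannot be told apart. Neither can fewer germ cells and less RNA per germ cell in these whole-tissue libraries. The comparison asks how the transcripts differ between testes whose germ cells were depleted of Caf40 and testes that lack *bam* function.

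The libraries held 30411385 and 26984758 gene counts in the knockdown, against 118209171 and 95125694 in the *bam* mutant. *Caf40*, listed as *Rcd-1*, was at 13.5 and 16.2 CPM (counts scaled to the TMM-adjusted library size) in the knockdown, against 204 and 207 CPM in the *bam* mutant, a log2 change of -3.80 (SE 0.09, adjusted p = 2.09e-05; here and below, adjusted p-values are from the quasi-likelihood test of edgeR, adjusted over all genes tested by Benjamini-Hochberg). Transcripts that constructs can carry were higher in the knockdown: *Dcr-2* by 1.50 and *w* by 4.85 on the log2 scale. Of 9 germline markers tested, 9 rose, with a median log2 change of 0.70, a highest of 1.10 and summed levels of 3144 and 2826 CPM in the knockdown, against 1895 and 1852 CPM in the *bam* mutant. Under a scaling that sets these germline markers level between libraries, 3 of them were called higher and 2 lower. Of 10 somatic cyst and hub markers tested, 8 fell (569 and 502 CPM summed in the knockdown, against 943 and 964 CPM in the *bam* mutant), and of 9 muscle markers 7 fell (887 and 1028 CPM in the knockdown, against 1381 and 1562 CPM in the *bam* mutant). Of 10 spermatocyte markers 5 rose (281 and 262 CPM in the knockdown, against 189 and 186 CPM in the *bam* mutant). Under germline scaling 0 of them were called higher and 2 lower, with a median of -0.06. *kmg*, whose protein marks spermatocytes in the study, was not called with TMM scaling (0.10, adjusted p = 0.689). Spermatid markers (3.62 and 93.0 CPM in the knockdown, against 7.94 and 9.19 CPM in the *bam* mutant; 1 of 8 called higher) and accessory gland markers (317 and 36.9 CPM in the knockdown, against 8.60 and 2.13 CPM in the *bam* mutant; 9 of 9 called higher) differed widely between the knockdown libraries. Neuronal markers summed to 15.8 and 17.4 CPM in the knockdown, against 56.2 and 60.4 CPM in the *bam* mutant, with 1 of 6 called higher and 1 lower. Without *nSyb* (2.19 and 2.03 CPM in the knockdown, against 43.0 and 47.1 CPM in the *bam* mutant) the other 5 summed to 13.6 and 15.3 CPM in the knockdown, against 13.3 and 13.3 CPM in the *bam* mutant. The part of these markers in the results below was not tested. For the germline list, each member's value under germline scaling is given. That is a rescaling, which cannot separate germ cell number from RNA per germ cell.

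Transcripts of 7 of the 8 genes rose in the Caf40 knockdown relative to the *bam* mutant and none was called lower, but under germline scaling 2 (*bam* and *bgcn*) were called higher and 3 (*Rbfox1*, *pum* and *brat*) lower. With that scaling 5.97% of all genes tested were called higher and 64.2% lower. Calls were common with TMM scaling: 63.7% of the 10854 genes tested passed an adjusted p of 0.05, and 30.7% were called higher. The median log2 change was 0.57 over the 8 genes and 0.03 over all genes tested. The replicates did not overlap between genotypes for 7 of the 8 genes, as for 83.4% of all genes tested (41.4% with the knockdown higher and 42% with it lower). Each of the 8 had a higher level in the first knockdown library than in the second (ratios of 1.05 to 1.12), and so did 68.7% of all genes tested. The *bam* mutant replicates differed by ratios of 0.894 to 1.08.

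**Figure D1:**
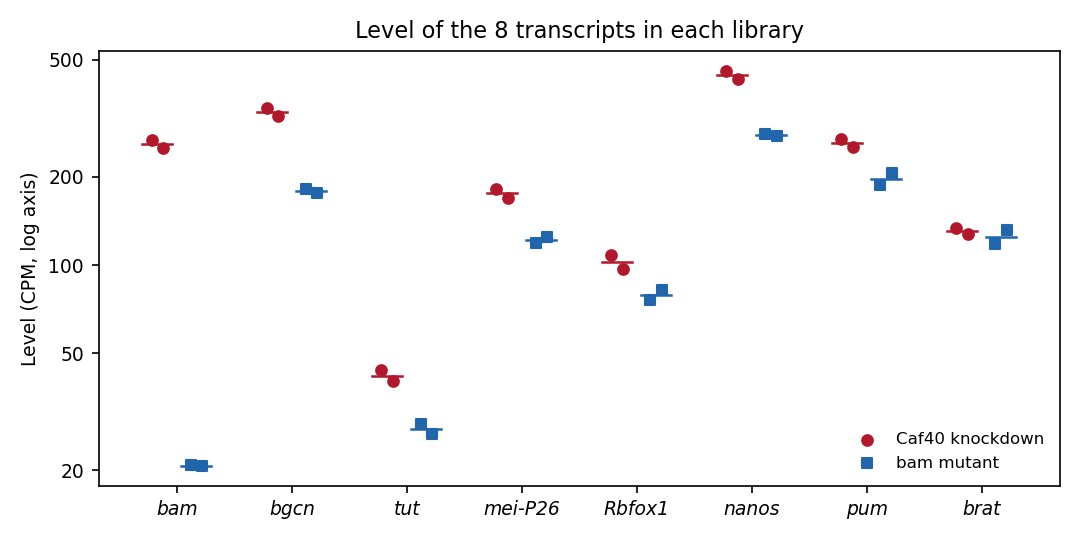
Level of each transcript in CPM (log axis) in the 2 Caf40 knockdown libraries (red circles) and the 2 *bam* mutant libraries (blue squares), with a line at each mean. Knockdown libraries lie above *bam* mutant libraries for 7 genes, by far the most for *bam*, and the groups overlap for *brat*.

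*bam* (FBgn0000158; dm6 3R, 25243039 to 25245109, minus strand) had 267 and 249 CPM in the knockdown, against 20.8 and 20.7 CPM in the *bam* mutant. The knockdown libraries were far above the mutant ones, which differed little from each other. The log2 change was 3.64 (SE 0.06, 95% interval 3.48 to 3.80, adjusted p = 1.95e-05), a 12.5-fold difference, and it was 2.95 under germline scaling. It ranked 216 from the highest among the log2 changes of the 10854 genes tested. This gene is the one mutated in the comparison group, and the counts do not separate intact from truncated transcripts, so the *bam* mutant level is that of whatever the alleles still produce over the annotated exons. An opposite-strand gene, *CG11854*, shares 224 bases (11.5%) of its exons, but opposite-strand reads numbered 3 and 1 in the knockdown and 14 and 11 in the *bam* mutant.

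*bgcn* (FBgn0004581; 2R, 23853270 to 23858921, minus strand) had 342 and 322 CPM in the knockdown, against 181 and 176 CPM in the *bam* mutant. It rose by 0.89 on the log2 scale (SE 0.06, 95% interval 0.74 to 1.05, adjusted p = 1.78e-04), or 1.86-fold, and by 0.21 under germline scaling (adjusted p = 0.0445). Apart from *bam*, it was the only one of the 8 still called higher with that scaling.

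*tut* (FBgn0052364; 3L, 8209577 to 8210743, minus strand) had 43.7 and 40.3 CPM in the knockdown, against 28.7 and 26.5 CPM in the *bam* mutant. Its log2 change was 0.61 (SE 0.08, 95% interval 0.41 to 0.80, adjusted p = 0.00144), which turned to -0.08 under germline scaling (adjusted p = 0.414).

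Per kilobase of exons, where different genes can be set side by side, *bam* reached 133 ± 6.53 CPM per kb in the knockdown, against 10.7 ± 0.0343 CPM per kb in the *bam* mutant (SD, n = 2 each). The level of *bgcn* on that scale was 82.2 and 77.4 in the knockdown, against 43.6 and 42.3 in the *bam* mutant, and that of *tut* was 41.8 and 38.5 in the knockdown, against 27.4 and 25.4 in the *bam* mutant. Among the 3 genes of the complex *bam* was therefore highest in the knockdown and lowest in the *bam* mutant. The *bam* mutant value of *bam* was divided by the full annotated length, although the second allele lacks most of the coding sequence. It therefore cannot be set beside *bgcn* and *tut* as the level of an intact transcript.

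**Figure D2:**
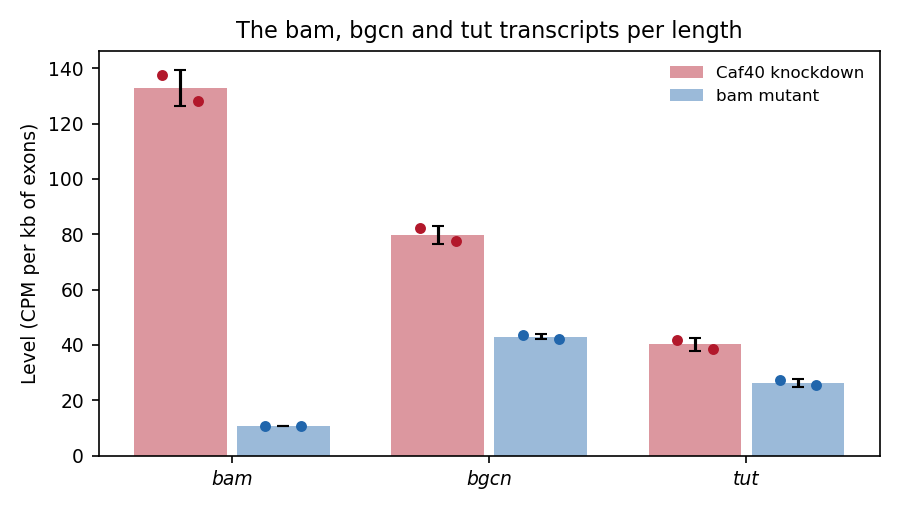
Level of *bam*, *bgcn* and *tut* in CPM per kilobase of exons in Caf40 knockdown (red) and *bam* mutant (blue) testes; bars are means, points are libraries and error bars are SD (n = 2 each). The *bam* bar is the tallest of the knockdown bars, at 133 CPM per kb, and the shortest of the *bam* mutant bars, at 10.7 CPM per kb. The full exonic length was used, although the second *bam* allele of the mutant lacks most of the coding sequence.

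Ratios of members within a library do not depend on the scaling between libraries. The *bam* to *bgcn* ratio per kilobase was 1.67 and 1.66 in the knockdown, against 0.245 and 0.251 in the *bam* mutant. The ratio in the *bam* mutant also uses the full length of *bam*, most of whose coding sequence the second allele lacks. The *bgcn* to *tut* ratio was 1.97 and 2.01 in the knockdown, against 1.59 and 1.67 in the *bam* mutant. The smallest p that an exact permutation test (two-sided) can give with this number of libraries is 0.333, so the 7 ratios computed are given as descriptions. In 6 of the 7 the genotypes did not overlap, and single genes did so in 83.4% of cases.

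*mei-P26* (FBgn0026206; X, 9163255 to 9189309, plus strand) had 182 and 169 CPM in the knockdown, against 119 and 124 CPM in the *bam* mutant. It rose by 0.53 on the log2 scale (SE 0.06, 95% interval 0.37 to 0.69, adjusted p = 0.00106), and the value was -0.15 under germline scaling (adjusted p = 0.104). Its annotated exons span 23228 bases, of which 3981 are coding, so its level per kilobase depends strongly on which exons are used.

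*brat* (FBgn0010300; 2L, 19133816 to 19179758, plus strand) had 134 and 128 CPM in the knockdown, against 118 and 132 CPM in the *bam* mutant. It was the only one of the 8 whose groups overlapped. The log2 change was 0.06 (SE 0.07, 95% interval -0.12 to 0.25, adjusted p = 0.458), an interval that leaves room for small differences in either direction. The value was -0.62 under germline scaling (adjusted p = 0.00117) and 0.21 under upper quartile scaling (adjusted p = 0.0354). The *mei-P26* to *brat* ratio per kilobase was 0.750 and 0.730 in the knockdown, against 0.553 and 0.519 in the *bam* mutant.

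*nanos* (FBgn0002962; 3R, 19157238 to 19160202, plus strand) had 460 and 429 CPM in the knockdown, against 279 and 276 CPM in the *bam* mutant. It rose by 0.68 on the log2 scale (SE 0.07, 95% interval 0.51 to 0.84, adjusted p = 5.24e-04), and its value under germline scaling was -0.01 (adjusted p = 0.931). The knockdown driver was built with *nanos* regulatory sequence. Reads from any transcribed *nanos* sequence in it and reads from the endogenous gene cannot be told apart in gene counts. Of its exons, 269 bases lie opposite *CG11779* and 104 bases opposite *Nsun5*. Counting without strand gave 80.9% and 81.1% of the stranded count in the knockdown, against 77.9% and 79.2% in the *bam* mutant.

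*pum* (FBgn0003165; 3R, 9066343 to 9237682, minus strand) had 269 and 253 CPM in the knockdown, against 187 and 206 CPM in the *bam* mutant. It rose by 0.41 on the log2 scale (SE 0.07, 95% interval 0.23 to 0.60, adjusted p = 0.00506) but was called lower under germline scaling (-0.27, adjusted p = 0.0268). Without *bam* mutant replicate 1 the log2 change was 0.26 (adjusted p = 0.0172). The *nanos* to *pum* ratio per kilobase was 8.58 and 8.51 in the knockdown, against 7.51 and 6.73 in the *bam* mutant. The *brat* to *pum* ratio was 0.458 and 0.466 in the knockdown, against 0.583 and 0.592 in the *bam* mutant.

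*Rbfox1* (FBgn0052062; 3L, 10481412 to 10594012, plus strand) had 108 and 96.7 CPM in the knockdown, against 75.9 and 82.2 CPM in the *bam* mutant. It rose by 0.37 on the log2 scale (SE 0.08, 95% interval 0.18 to 0.57, adjusted p = 0.00846) but was called lower under germline scaling (-0.32, adjusted p = 0.0084). The log2 change was 0.23 without *bam* mutant replicate 1 (adjusted p = 0.0451) and 0.25 without knockdown replicate 1 (adjusted p = 0.0037). The *Rbfox1* to *pum* ratio was 0.570 and 0.543 in the knockdown, against 0.577 and 0.567 in the *bam* mutant, the one ratio of the 7 in which the genotypes overlapped.

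**Figure D3:**
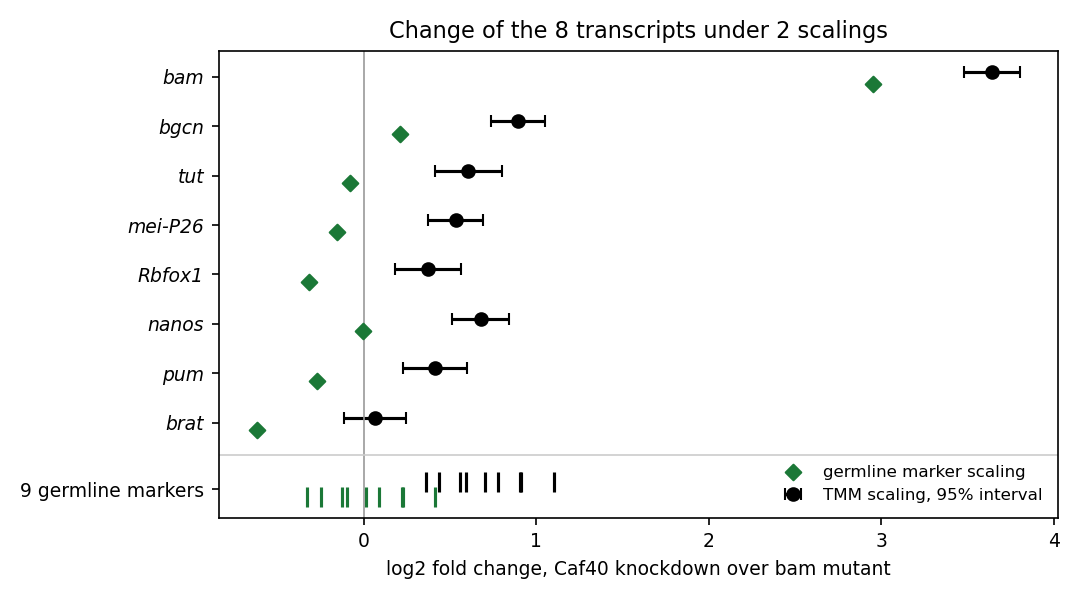
Log2 fold change of the 8 transcripts, Caf40 knockdown over *bam* mutant, with TMM scaling (black, bars are 95% intervals) and with germline marker scaling (green diamonds), and below them the 9 germline markers as ticks. With TMM, 7 of the 8 intervals lie above 0, whereas with germline scaling *bam* stays at 2.95 and *Rbfox1*, *pum* and *brat* lie at -0.32, -0.27 and -0.62.

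Ranked per kilobase of exons, the order in the knockdown was *nanos*, *bam*, *bgcn*, *tut*, *pum*, *Rbfox1*, *brat* and *mei-P26*, with no overlap between neighbours. In the *bam* mutant it was *nanos*, *bgcn*, *tut*, *pum*, *bam*, *brat*, *Rbfox1* and *mei-P26*, where *brat* and *Rbfox1* overlapped. *nanos* led both orders, at 196 and 183 CPM per kb in the knockdown, against 119 and 117 CPM per kb in the *bam* mutant. Per kilobase of coding sequence, only 3 of the 8 kept their place in the *bam* mutant, where *bam* was then lowest. In the knockdown 6 of the 8 did, and *mei-P26* and *Rbfox1* changed places. By coding length in the *bam* mutant, *pum* and *tut* overlapped, as did *tut* and *brat*, so the order among these genes is not resolved. Both places of *bam* in the *bam* mutant rest on its full length, although the second allele lacks most of the coding sequence.

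The 3 genes whose profile over the 4 libraries was nearest to that of *bam* (Euclidean distance between log2 CPM profiles, each centred on its mean, over 10853 genes) were *CG13248*, *B9d1* and *CR44383*, at distances of 0.221, 0.236 and 0.240. *CG13248* had 14.5 and 13.5 CPM in the knockdown, against 1.32 and 1.12 CPM in the *bam* mutant. *B9d1*, which encodes a protein of the ciliary transition zone, had 16.9 and 15.4 CPM in the knockdown, against 1.53 and 1.47 CPM in the *bam* mutant. *CR44383* had 1.16 and 0.965 CPM in the knockdown, against 0.0530 and 0.0429 CPM in the *bam* mutant. Those *bam* mutant levels lie near the 0.0265 and 0.0322 CPM that a count of 3 gives in these libraries. In the fit the log2 changes of *CG13248*, *B9d1* and *CR44383* were 3.52, 3.43 and 4.41, against 3.64 for *bam*. The distances used a prior count of 2, which shrinks changes at counts this low. The fitted change of *CR44383* lay farther from that of *bam* than did those of *CG13248* and *B9d1*. Its short distance therefore depends on that prior count, and other prior counts were not tried. Each profile rests on 4 points.

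Of 7 reported targets or outputs of these regulators that were tested, 3 rose and 4 fell, with a median log2 change of -0.25. Over all genes tested, 30.7% were called higher and 33% lower. Under germline scaling 1 rose and 6 fell, with a median of -0.94, against 5.97% of all genes called higher and 64.2% lower. With TMM scaling and without *bam* mutant replicate 1 the median was -0.39. *hid*, a promoter of cell death, had 16.4 and 12.3 CPM in the knockdown, against 58.0 and 58.7 CPM in the *bam* mutant, and fell by 2.02 on the log2 scale (SE 0.14, adjusted p = 1.62e-04). *hb*, the embryonic target of Nanos and Pum, was low, at 1.03 and 0.896 CPM in the knockdown, against 2.19 and 2.19 CPM in the *bam* mutant, and fell by 1.18 (SE 0.29, adjusted p = 0.0165). It was not called without *bam* mutant replicate 1 (adjusted p = 0.142) or without replicate 2 (adjusted p = 0.14). *how*, which encodes a KH-domain RNA-binding protein, fell by 0.25 (adjusted p = 0.0181), or 1.19-fold, and *shg*, which encodes E-cadherin, fell by 0.29 (adjusted p = 0.0259). The study compared the same genotypes with DESeq2 and described their *how* RNA levels as similar. By in situ hybridization it also found that *how* transcripts remained in the overproliferating germ cells of the knockdown. *how* was not called under upper quartile scaling (-0.11, adjusted p = 0.0939) or library size alone (-0.16, adjusted p = 0.054). Under germline scaling *how* was at -0.94 (adjusted p = 1.20e-04) and *shg* at -0.98 (adjusted p = 3.08e-05). The median with that scaling was -1.87 for the somatic cyst and hub markers and -1.37 for the muscle markers. The study also detected How protein in somatic cyst cells and the testis sheath. These 2 values are therefore not levels per germ cell, and the part of somatic cells in them was not tested. With TMM scaling *how* was at -0.39 without *bam* mutant replicate 1. *shg* was at -0.45 without knockdown replicate 1 and -0.19 without knockdown replicate 2.

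*Mad*, the transcription factor of BMP signalling, had 189 and 173 CPM in the knockdown, against 96.6 and 96.8 CPM in the *bam* mutant, and rose by 0.91 (SE 0.06, adjusted p = 1.78e-04; 0.22 under germline scaling). *CycB*, a mitotic cyclin, and *Myc*, a growth regulator, rose by 0.25 (adjusted p = 0.034) and 0.20 (adjusted p = 0.0392), and both were called lower under germline scaling, at -0.44 and -0.49. Neither was called without *bam* mutant replicate 1, where the log2 changes were 0.19 and 0.13, without *bam* mutant replicate 2 (0.14 and 0.09) or without knockdown replicate 1 (0.11 and 0.09).

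Of 14 other RNA-binding or translational regulators tested, 7 rose, 3 fell and 4 did not pass the test. Of all genes tested, 30.7% were called higher and 33% lower. Under germline scaling 1 of the 14 rose and 10 fell (median -0.56), against 5.97% of all genes called higher and 64.2% lower. With TMM scaling the median of the 14 was 0.13. Without *bam* mutant replicate 1, 4 rose and the median was 0.0213. Without knockdown replicate 1, 6 fell and the median was 0.0400, and without knockdown replicate 2 it was 0.0240. *otu*, needed in early germ cells of the ovary, had 54.2 and 41.8 CPM in the knockdown, against 18.3 and 19.1 CPM in the *bam* mutant, and rose by 1.36 (adjusted p = 5.26e-04). *Syp*, which encodes an RNA-binding protein, had 81.7 and 83.0 CPM in the knockdown, against 202 and 223 CPM in the *bam* mutant, and fell by 1.37 (adjusted p = 7.27e-05). *bru1* and *orb*, translational regulators of the germ line, rose by 0.63 and 0.58 (adjusted p = 3.10e-04 and 0.00377) but were at -0.05 and -0.11 under germline scaling. Of the NHL relatives, *wech* rose by 0.92 (adjusted p = 1.02e-04; 0.24 and not called under germline scaling) and *tn* fell by 0.51 (adjusted p = 0.0075). The value of *tn* under germline scaling was -1.20 (adjusted p = 1.22e-04).

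**Figure D4:**
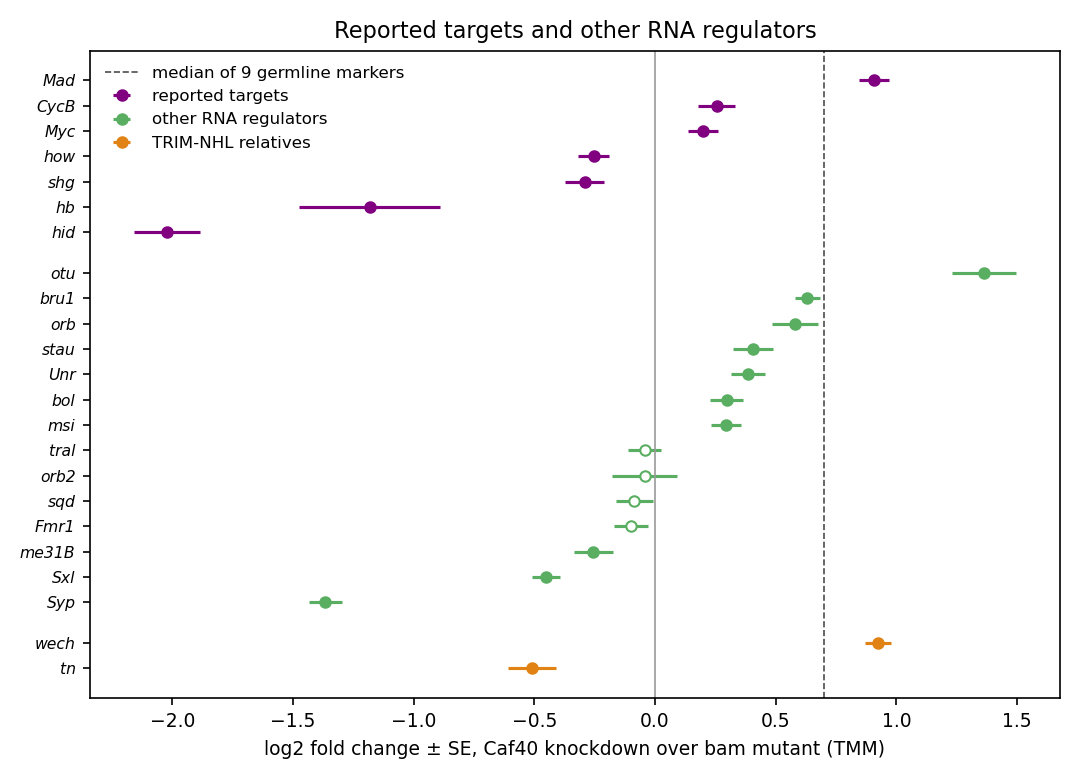
Log2 fold change (TMM, bars are SE), Caf40 knockdown over *bam* mutant, of 7 reported targets (purple), 14 other RNA regulators (green) and 2 NHL relatives (orange); open circles did not pass the test, and the dashed line is the germline marker median of 0.70. *otu*, *Mad* and *wech* lie to the right of that line, and *hid*, *Syp* and *hb* lie farthest to the left.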

How the data were processed

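Per the labels, RNA was poly(A)-selected and made into directional libraries. The authors trimmed reads with Trim Galore, aligned them to dm6 with STAR and deposited raw counts per gene for each library; tool versions and annotation release are not given in the sources used here. The count on the reverse strand was used, since the opposite strand held 2.47% to 2.54% of stranded counts. Entries that name no gene (30.7% and 30.8% in the knockdown, 28.9% and 26.9% in the *bam* mutant) were left out. The 2 tables not used here held the authors' own comparison (fold changes and p-values) and normalised values in 4 per-sample columns, some of whose names could not be matched to the labels: 2 of them read wild type and 0 h for the comparison libraries. The labels, which were followed, give a *bam* mutant dissected 48 h after the shock.

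Genes kept by filterByExpr (10854) were scaled by trimmed mean of M-values (TMM) and tested with edgeR 4.0.16 (R 4.3.3; glmQLFit, glmQLFTest, two-sided), called at an adjusted p under 0.05. CPM are TMM-scaled counts; a count of 3, the limit that a count of 0 allows, was 0.0997 and 0.103 CPM in the knockdown and 0.0265 and 0.0322 CPM in the *bam* mutant, for counting error only. Profiles used log2 CPM with a prior count of 2. Exonic lengths and positions came from Ensembl release 115 (BDGP6.54), and 105 of 113 listed genes matched an ID. The fit was tested on simulated data. Alternatives were other scalings (including to germline markers), filters, DESeq2 1.42.0, limma-voom (limma 3.58.1), unstranded counts, thinning, a replicate block and leaving out each library. Named genes were the 8 members, the targeted and construct genes, called targets, up to 4 called genes with the largest change in other lists, and 3 profiles nearest to *bam*. Members, though defined by name, and lists were chosen with earlier results of these data known. Labels do not say whether replicates are separate cultures, so p-values measure only the spread between libraries, which may be technical. Sequences are not printed here.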

Additional observations from a re-analysis of the deposited data

Results flagged for a closer look

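Reads on the strand opposite to *nanos*, which the comparisons above do not use, came to 2.23 and 3.31 CPM in the knockdown (mean 2.77), against 1.67 and 1.48 CPM in the *bam* mutant (mean 1.57). As a share of the *nanos* counts on both strands together they were 0.482% and 0.765% in the knockdown, against 0.594% and 0.534% in the *bam* mutant. The groups overlap in this share. This result was picked out because the signal lies outside the main measurement and had a higher CPM in the knockdown. The exons of *nanos* share bases with the opposite-strand genes *CG11779* and *Nsun5*; their part in it was not tested.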

How the results depend on the processing

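*bam* and *bgcn* kept their direction and call in all 15 alternatives. Scaling to the germline markers, which moved the median log2 change of all genes to -0.65 (0.18 under upper quartile scaling, 0.03 with TMM), gave 648 genes higher and 6971 lower (8.51% higher among calls, against 48.2% with TMM), and turned *tut* to -0.0816, *mei-P26* to -0.15, *Rbfox1* to -0.32, *nanos* to -0.00735, *pum* to -0.27 and *brat* to -0.62, with 2 members called higher and 3 lower. It also gave 1 target higher, 1 other regulator higher and 10 lower (median -0.56), no NHL relative higher (0; median -0.48), and turned *CycB* to -0.44, *Myc* to -0.49, *bru1* to -0.0536 and *orb* to -0.11. *brat* was called higher with upper quartile scaling (0.21) and was -0.0844 with no filter beyond 1 count. With that filter 1 target was higher and 6 other regulators lower (median -0.19). Leaving out each library gave *brat* -0.10 to 0.10 (-0.10 without *bam* mutant replicate 1, -0.01 without knockdown replicate 1), 1915 to 4042 genes higher (2057 without *bam* mutant replicate 1 and 1915 without replicate 2), 3068 to 4233 lower, 1 to 3 targets higher, 4 to 7 other regulators higher and 3 to 6 lower. By coding length, 3 of 8 members kept their place in the *bam* mutant order and 6 in the knockdown order. The cause of these shifts was not tested.

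With a replicate block, 7 members and 3258 genes were called higher and 3534 lower. The numbers were not taken to pair the libraries, since the labels name no shared batch and there are only 2 pairs, whose deviations correlated at 0.264.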
